A study of Homo sapiens with 18 samples.

Results

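Untreated U2OS cells that carried mutant DNMT3A were compared with untreated U2OS cells that carried wild-type DNMT3A. U2OS is a human osteosarcoma cell line, and both lines were made by overexpression from a construct. The comparison took 6 of the 18 RNA-seq libraries of the series, 3 mutant and 3 wild-type, and 18226 of the 25296 genes in the count table, those with enough counts to be tested. Another U2OS line carried the empty retroviral vector MigR1, and all lines were also sampled 24 h after 10 µM cytarabine, a cytidine analogue that blocks DNA synthesis. Those libraries are used here only as reference levels and to ask whether a baseline difference was also found under the drug. The substitution is R882C in the series text but R882H in the labels of the samples, and the word mutant is used below for this reason. The series text describes the unexposed cells as receiving vehicle, while the sample labels call them untreated. Replicates are labelled as biological triplicates by plating of each line, with a single derived line per construct. Every p-value therefore rests on the spread between platings. The main fit pooled that spread over all 6 groups, the empty vector and cytarabine groups included. The labels do not say whether a line is a clone or a pool, so differences between derived lines and differences between the DNMT3A forms cannot be told apart.

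DNMT3A adds methyl groups to cytosines that precede a guanine (CpG) and sets new methylation patterns during development, together with DNMT3B, whereas DNMT1 copies existing patterns after replication. CpG methylation at promoters is associated with silencing, and methylation of gene bodies accompanies transcription. Arginine 882 lies in the catalytic domain, near the interface through which DNMT3A molecules assemble and contact DNA. Its substitution lowers the enzyme's activity and is among the most frequent mutations of acute myeloid leukaemia, and it can also impair wild-type DNMT3A in the same complex. U2OS cells are mesenchymal tumour cells with wild-type p53 and no blood cell identity.

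The introduced gene was read first in each library. DNMT3A reached 499.7, 615 and 254 CPM (counts scaled to a library of 1 M counts) in mutant replicates 1, 2 and 3, and 131, 129 and 139 CPM in the wild-type replicates. Empty vector cells held 26.9, 27.5 and 26.2 CPM, so both DNMT3A lines stood above the vector and the groups did not overlap. Mutant cells therefore carried 3.42 times as much DNMT3A RNA as wild-type cells (log2 fold change 1.77, SE 0.185, edgeR adjusted p = 2.04e-06), and the form of the protein and the level of its RNA cannot be told apart in any gene below. The counts do not separate introduced from endogenous transcripts.

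**Figure D1:**
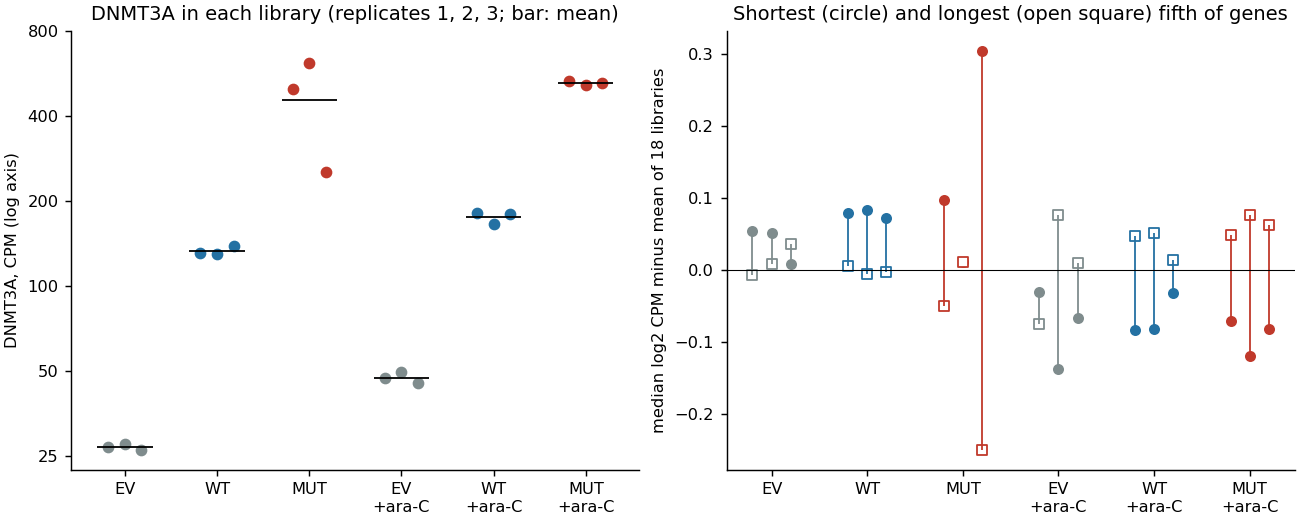
Left, DNMT3A in CPM on a log axis in each of the 18 libraries, with points in the order of replicates 1, 2 and 3, bars at the mean, and the empty vector (EV), wild-type (WT) and mutant (MUT) lines untreated and after cytarabine (ara-C). Right, the median log2 CPM of the shortest (filled circles) and longest (open squares) 20% of genes in each library, minus the mean over the 18 libraries; untreated mutant replicate 3 has the widest gap, 0.304 against -0.249.

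The 6 libraries held 18.03 to 21.48 M counts. The untreated mutant replicates differed among themselves much more than the wild-type ones: 263 to 645 genes were at least 2-fold apart between pairs of mutant replicates, and 28 to 33 between pairs of wild-type replicates. The biological coefficient of variation was 0.216 in the mutant and 0.0398 in the wild-type group, and 0.104 in common over all groups. The pooled spread was thus below that of the untreated mutant group. Mutant replicate 3 had the lowest DNMT3A of its group and a shift by gene length, with the shortest 20% of genes 0.304 above and the longest 20% 0.249 below the mean of all libraries on the log2 scale. Mutant replicate 2 had 4.47% of its counts on mitochondrial genes, against 2.70% to 3.21% in the other 5. The part of these features in the results was not tested, and counts are given with and without the libraries concerned where they moved. As a check of identity, 9 of 11 mesenchymal and osteosarcoma markers in the table exceeded 1 CPM in all 18 libraries, led by VIM and SPARC, with a sum of 3714 to 4343 CPM in the mutant and 3722 to 3743 CPM in the wild-type libraries. Blood cell markers summed to 2.68 to 3.90 and 3.12 to 3.68 CPM. Epithelial markers summed to 19.7 to 24.4 and 13.5 to 15.6 CPM, led by CLDN4 with means of 15.6 and 10.7 CPM, and ESRP1 was at 0 counts in both groups. Neural markers were also present, with 6 of 11 over 1 CPM in all 18 libraries. They summed to 169 to 198 CPM in the mutant and 157 to 161 CPM in the wild-type libraries, led by TUBB3.

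At baseline the lines differed in 3872 of 18226 tested genes (21.2%) at an adjusted p under 0.05. In the mutant line, 2134 genes were higher (11.7%) and 1738 were lower (9.54%). Most differences were small: the median absolute log2 fold change of the called genes was 0.45, and 634 genes (3.48%) were both called and at least 2-fold apart, 345 of them higher and 289 lower. The 3 mutant libraries lay wholly above or below the 3 wild-type libraries in 3633 of the called genes (93.8%), whereas 31.9% of all tested genes had groups that did not overlap. Higher genes made up 55.1% of the calls, and this split depended on scaling: it was 65.4% with RLE factors, 64.3% with the authors' library factors and 65.8% with DESeq2. Leaving out wild-type replicate 2 reduced the lower genes to 1012, and a fit to the 6 libraries alone called 1171 genes. In these bulk samples, fewer cells of a type and less RNA per cell cannot be told apart. A total of 2110 calls held in all 6 fits that each left out 1 of the libraries.

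**Figure D2:**
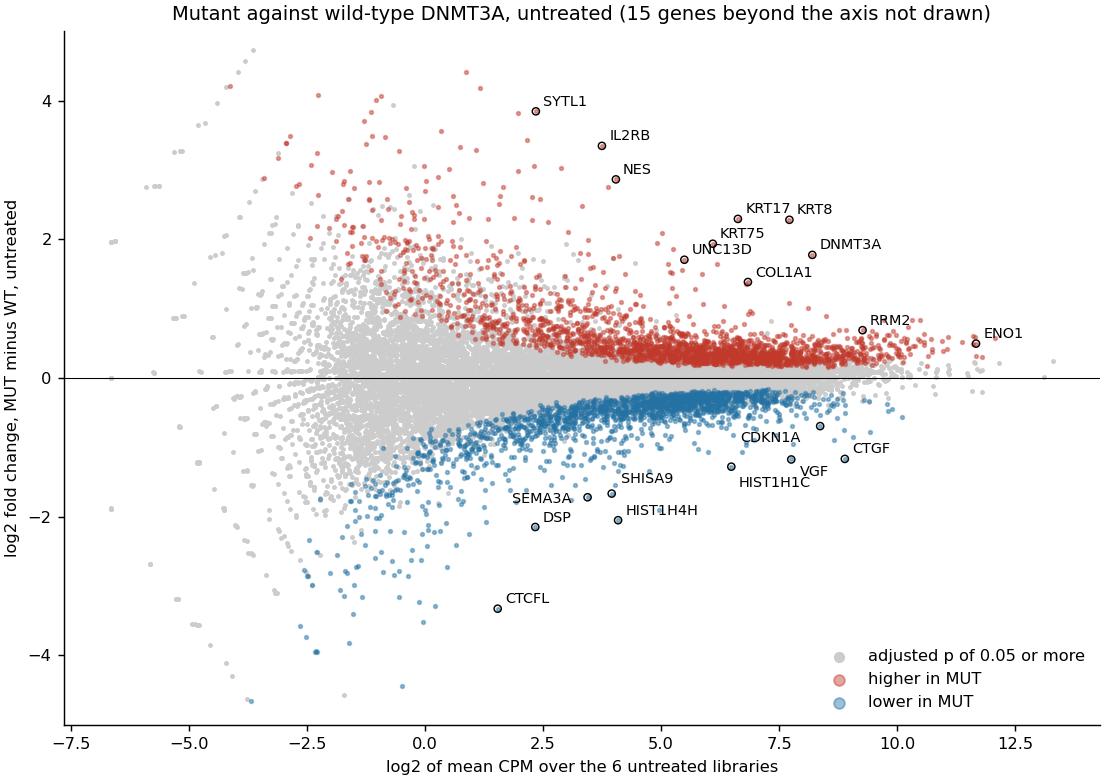
Each point is a tested gene, with the log2 of its mean CPM over the 6 untreated mutant and wild-type libraries on the x axis and the log2 fold change, mutant minus wild-type, on the y axis. Red genes (2134) were called higher and blue genes (1738) lower at an adjusted p under 0.05; 15 genes lie beyond the y axis.

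CpG pairs, the dinucleotide that DNMT3A methylates, are shown here in the promoters of 5 genes that the results below describe. The 250 bases before the RefSeq start (GRCh38.p14, given 5′ to 3′ on the gene's own strand) are printed for 3 genes that were higher and 2 that were lower in the mutant, chosen after their values were seen, with each CpG in capitals. NES (chr1:156677408-156677657, minus strand), SYTL1 (chr1:27341772-27342021, plus strand) and IL24 (chr1:206897193-206897442, plus strand) were higher and held 8, 11 and 2 CpG. CTGF, named CCN2 in RefSeq (chr6:131951373-131951622, minus strand), and the linker histone gene HIST1H1C, named H1-2 in RefSeq (chr6:26056471-26056720, minus strand), were lower and held 13 and 11 CpG.
NES: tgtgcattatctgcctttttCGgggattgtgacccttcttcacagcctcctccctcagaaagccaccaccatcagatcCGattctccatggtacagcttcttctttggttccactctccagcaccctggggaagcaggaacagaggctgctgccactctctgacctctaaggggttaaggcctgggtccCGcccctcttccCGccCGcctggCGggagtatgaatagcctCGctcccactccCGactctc
SYTL1: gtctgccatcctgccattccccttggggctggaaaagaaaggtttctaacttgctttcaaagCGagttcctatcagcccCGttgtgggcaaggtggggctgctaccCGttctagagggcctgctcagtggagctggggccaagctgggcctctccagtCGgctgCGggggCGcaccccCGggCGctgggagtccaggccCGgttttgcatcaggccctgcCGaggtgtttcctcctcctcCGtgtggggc
IL24: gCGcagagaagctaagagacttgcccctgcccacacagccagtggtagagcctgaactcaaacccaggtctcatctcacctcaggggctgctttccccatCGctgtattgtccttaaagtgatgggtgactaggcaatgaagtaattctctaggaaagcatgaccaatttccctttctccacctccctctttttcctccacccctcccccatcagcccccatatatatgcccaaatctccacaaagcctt
CTGF: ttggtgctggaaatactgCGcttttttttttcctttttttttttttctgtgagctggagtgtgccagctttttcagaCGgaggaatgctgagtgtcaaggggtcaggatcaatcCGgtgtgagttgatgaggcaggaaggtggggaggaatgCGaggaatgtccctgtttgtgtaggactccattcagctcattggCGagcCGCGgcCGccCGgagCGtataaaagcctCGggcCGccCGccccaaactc
HIST1H1C: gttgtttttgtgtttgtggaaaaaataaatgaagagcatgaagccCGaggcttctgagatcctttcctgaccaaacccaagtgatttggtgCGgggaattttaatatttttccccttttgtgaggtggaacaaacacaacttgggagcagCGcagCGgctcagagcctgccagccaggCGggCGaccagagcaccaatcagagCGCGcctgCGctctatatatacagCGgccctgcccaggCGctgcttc
The median was 20 CpG over the 12094 of 18226 tested genes that matched a RefSeq promoter. The 5 windows printed lie below it, but other named genes lie above, such as DSP with 33 CpG (log2 fold change -2.15), TUBB2B with 28 (1.64), VGF with 27 (-1.18) and ICAM1 with 23 (2.62). Over the changed genes as a whole, the median was 11 CpG over 207 matched genes called at least 2-fold higher and 8 over 149 called at least 2-fold lower, while it was 21 over all matched genes called higher and 20 over all those called lower. At least 10 CpG were present in 56.5% and 47.0% of the strongly higher and strongly lower genes, and in 81.6% of all matched genes. The CTGF window also held 3 copies of GGAATG, the core of the element bound by TEAD factors, and 1 TATAAA, searched on both strands; 9.76% of the matched promoters held at least 1 GGAATG and 5.81% at least 1 TATAAA, and the matches in CTGF do not overlap. A match is a description of the sequence, and methylation was not measured in these libraries.

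The largest increases included SYTL1, IL2RB and NES, which were low in the wild-type line and higher in both of the others. SYTL1, a Rab27 effector of vesicle transport, was at 10.4, 7.3 and 10.9 CPM in the mutant and 1.03, 0.37 and 0.55 CPM in the wild-type replicates (14.4-fold, log2 fold change 3.84, SE 0.27, edgeR adjusted p = 8.09e-09). IL2RB, the shared beta chain of the interleukin 2 and interleukin 15 receptors, was at 26.5, 26.7 and 20.2 CPM against 2.75, 2.22 and 2.2 CPM (10.2-fold, log2 fold change 3.35, SE 0.148, edgeR adjusted p = 2.05e-11). Both genes were also well above wild-type in the empty vector line, at 4.97, 3.62 and 5.16 CPM for SYTL1 and 18.7, 21.6 and 18.9 CPM for IL2RB. NES, which encodes the intermediate filament nestin, was at 24.3, 34.2 and 28.4 CPM against 3.97, 4.13 and 3.79 CPM (7.28-fold, log2 fold change 2.86, SE 0.151, edgeR adjusted p = 1.75e-10), with 26.1, 24.9 and 23.5 CPM in the vector line. Relative to vector, NES differed by a log2 fold change of 0.22 in the mutant and -2.64 in the wild-type line, and IL2RB by 0.31 and -3.04, so the wild-type level stood apart.

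Other large increases were those of PALM3 (log2 fold change 3.43), a paralemmin family gene, the pro-apoptotic BH3-only gene BIK (3.05), the scavenger receptor gene SCARF1 (2.99), the actin regulator GMFG (2.76), the adhesion receptor gene ICAM1 (2.62), the small GTPase gene RRAD (6.07-fold) and the long noncoding RNA AL137026.1 (3.03). ICAM1 was at 4.91, 4.78 and 5.83 CPM in the mutant, 0.932, 0.635 and 0.935 CPM in the wild-type and 6.84, 7.48 and 8.42 CPM in the vector line. RRAD had another order, with 7.77, 6.6 and 10.5 CPM in the mutant against 1.32, 1.32 and 1.43 CPM in the wild-type and 1.4, 1.75 and 1.84 CPM in the vector line, so that the mutant stood apart. SCARF1 lay between, at 2.34, 2.8 and 2.27 CPM in vector cells, 7.97, 5.28 and 7.54 CPM in mutant cells and 0.785, 0.952 and 0.88 CPM in wild-type cells.

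Keratins led the increases among well expressed genes. KRT8, a simple epithelial type II keratin, was at 282, 379 and 387 CPM in the mutant and 77.9, 69.3 and 68.1 CPM in the wild-type replicates (4.86-fold, log2 fold change 2.28, SE 0.104, edgeR adjusted p = 2.42e-11). KRT17, a type I keratin of stratified epithelia and stress, was at 135, 159.7 and 198 against 32.1, 34.3 and 33.9 CPM (4.9-fold, log2 fold change 2.29, SE 0.121, edgeR adjusted p = 1.75e-10). The vector line matched the mutant more closely for both, with 342, 348 and 336 CPM of KRT8 and 128, 124 and 134 CPM of KRT17. KRT75, a hair follicle keratin, was at 97.7, 117 and 110.1 CPM in the mutant, 31.8, 23.9 and 29.3 CPM in the wild-type and 17.6, 13.9 and 14.1 CPM in the vector replicates, so for this gene the wild-type line was nearer the vector and the mutant was the high line (3.83-fold over wild-type, log2 fold change 1.94, SE 0.116, edgeR adjusted p = 1.14e-09). Keratin genes have many processed pseudogenes, and how reads with several matches were counted is not given in the sources used here. The desmosomal plaque gene DSP, a partner of keratins at cell junctions, went the other way, at 2.11, 2.14 and 1.31 CPM in the mutant against 9.02, 7.88 and 7.81 CPM (4.44-fold lower, log2 fold change -2.15, SE 0.23, edgeR adjusted p = 2.9e-06).

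Other well expressed genes above wild-type were UNC13D, which primes secretory granules for release, the beta tubulin gene TUBB2B, the peptide hormone gene KISS1 and PARP10, a mono-ADP-ribosyltransferase. UNC13D had the least spread, at 69.4, 68 and 69.4 CPM in the mutant and 21.4, 21 and 21 CPM in the wild-type replicates (3.26-fold, log2 fold change 1.71, SE 0.0624, edgeR adjusted p = 1.78e-12), and the vector line was at 72.7, 72.1 and 72.4 CPM. KISS1 had the most, at 56.6, 35.7 and 102 CPM against 24.9, 23.1 and 18.4 CPM, with mutant replicate 3 the highest (log2 fold change 1.55, SE 0.251, edgeR adjusted p = 0.000232). TUBB2B was 3.12-fold and PARP10 2.87-fold higher.

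**Figure D3:**
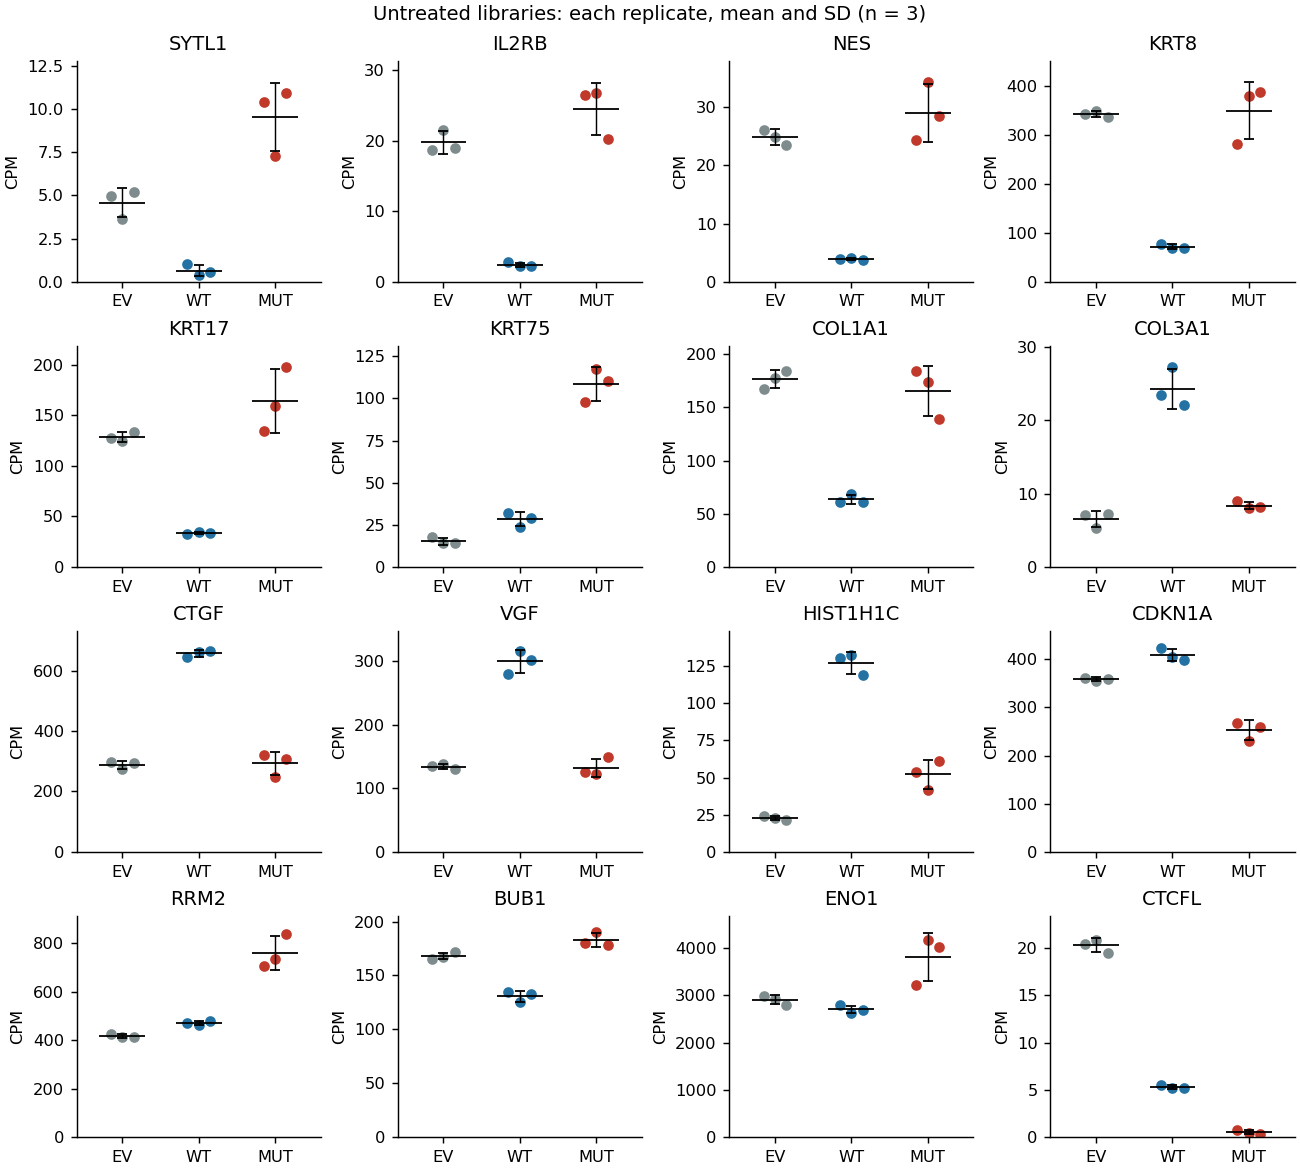
CPM of 16 genes in the 3 untreated replicates of the empty vector (EV), wild-type (WT) and mutant (MUT) lines; points are libraries in replicate order, horizontal bars the mean and vertical bars the SD (n = 3). KRT8, KRT17, NES, COL1A1, CTGF and VGF have vector levels near the mutant level, whereas RRM2 and BUB1 are highest, and CDKN1A and CTCFL lowest, in the mutant.

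Genes lower in the mutant included CTGF, VGF, TAGLN and ADGRL2. CTGF, a matricellular growth factor and a standard target of YAP and TEAD, was at 322, 249 and 307 CPM in the mutant and 645, 662 and 665 CPM in the wild-type replicates (2.25-fold lower, log2 fold change -1.17, SE 0.0816, edgeR adjusted p = 7.99e-09). The vector line held 297, 274 and 293 CPM of CTGF, within the range of the mutant libraries. VGF, a neurosecretory peptide gene, had the same order, with 126, 123 and 149 CPM in the mutant, 280.3, 316 and 303 CPM in the wild-type and 135, 138 and 130.3 CPM in the vector line (log2 fold change -1.18, SE 0.0945, edgeR adjusted p = 5.76e-08). TAGLN, an actin-binding protein of contractile cells, was at 147, 115 and 192 against 304, 285 and 288 CPM (log2 fold change -0.95, SE 0.13, edgeR adjusted p = 4.39e-05), and the latrophilin ADGRL2 at 35.9, 40.9 and 31.9 against 76.1, 72 and 73.3 CPM (log2 fold change -1.03, SE 0.0928, edgeR adjusted p = 3.04e-07). The long noncoding RNA NEAT1, the scaffold of paraspeckles, varied more, at 109, 42.7 and 75.1 CPM in the mutant and 156, 162 and 125 CPM in the wild-type replicates (log2 fold change -0.96, SE 0.223, edgeR adjusted p = 0.00436), and it was not called in the fit to the 6 libraries alone (adjusted p = 0.0743).

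Lower genes named by size included 3 clustered histone genes. The linker histone gene HIST1H1C was at 53.6, 42 and 61.4 CPM in the mutant and 130.3, 132 and 119 CPM in the wild-type replicates (log2 fold change -1.28, SE 0.109, edgeR adjusted p = 1.21e-07), HIST1H4H at 7.67, 4.59 and 7.48 against 27.5, 27.1 and 27.8 CPM (log2 fold change -2.05, SE 0.151, edgeR adjusted p = 1.66e-08) and HIST1H2BK at 43.4, 44 and 36 against 82.6, 91.7 and 83.3 CPM (log2 fold change -1.06, SE 0.153, edgeR adjusted p = 7.14e-05). In the vector line these were at 24.4, 23 and 21.5, 6.02, 5.96 and 5.29 and 26.9, 23.4 and 21.7 CPM in the same order, so the wild-type line was the high line for all 3. Near-identical histone copies can share reads, so the split between copies is uncertain.

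The remaining low genes were DSP, above, the granule protein gene CHGB (-2.08), the secreted proteoglycan gene ESM1 (-1.75), the axon guidance ligand SEMA3A (-1.72), the glutamate receptor auxiliary gene SHISA9 (-1.67), the TNF family ligand TNFSF15 (-1.62), and AC008012.1, AC062015.1, AC009299.1 and AL590004.3, which have no established role. SHISA9 varied little within groups, at 7.67, 7.61 and 6.97 CPM in the mutant against 22.5, 24.6 and 23.6 CPM in the wild-type replicates. ESM1 was at 3.71, 2.26 and 5.65 against 14.1, 14 and 11.4 CPM, and SEMA3A at 4.91, 5.79 and 4.51 against 16.8, 14.7 and 18.6 CPM. Over the 36 genes named by size of change, the vector level was nearer the mutant for 27 and nearer the wild-type for 9. In the comparison with the vector, which reuses the same libraries and so adds no independent test, 3632 genes differed in the mutant line (19.9%, with 9.88% higher and 10% lower) and 2125 in the wild-type line (11.7%, with 4.3% higher and 7.36% lower).

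Among proliferation genes, more were called higher than lower in the mutant, and most were not called. Of 48 replication and E2F target genes, 18 were higher and 2 lower, beside 11.7% and 9.54% of all tested genes, with a median log2 fold change of 0.17 against 0.00 over all genes. Calls also varied with abundance: of genes with a mean log2 CPM of 7 or more, 27.6% were higher and 6.94% lower (median 0.10). The gene lists were not matched for abundance. RRM2, the regulated subunit of ribonucleotide reductase, was at 707, 734 and 839 CPM in the mutant and 471, 465 and 479 CPM in the wild-type replicates (log2 fold change 0.69, SE 0.0641, edgeR adjusted p = 4.55e-07). CHAF1B, a chromatin assembly subunit, was at 29.1, 30.1 and 30.2 against 20.3, 22.1 and 22.2 CPM (log2 fold change 0.47, SE 0.0726, edgeR adjusted p = 0.000145). E2F8, an E2F repressor, and MCM10, a replication initiation factor, were lower (log2 fold changes -1.25 and -0.23). MCM10 was not called in the fit to the 6 libraries alone (edgeR adjusted p = 0.127). Between 12 and 24 of the 48 were higher when 1 of the 6 libraries was left out, with 12 without wild-type replicate 1 and 12 without wild-type replicate 3.

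Of 43 G2 and mitosis genes, 17 were higher and 0 lower by edgeR, beside 11.7% and 9.54% of all tested genes, and the median was 0.20. The spindle checkpoint kinase gene BUB1 was at 179.8, 190.1 and 178 CPM in the mutant and 135, 125 and 132 CPM in the wild-type replicates (log2 fold change 0.48, SE 0.0648, edgeR adjusted p = 3.71e-05). The kinesin genes KIF20A and KIF2C, which act in cytokinesis and at kinetochores, were at 99.5, 95.6 and 85.3 against 63.7, 67 and 64.9 CPM (log2 fold change 0.52, SE 0.0702, edgeR adjusted p = 3.8e-05) and 206, 228 and 244 against 158, 170.1 and 158 CPM (log2 fold change 0.48, SE 0.0662, edgeR adjusted p = 4.87e-05). Leaving out 1 library gave 15 to 24 higher and at most 1 lower. The vector line lay lower than the mutant for these groups: relative to vector, the list medians were 0.12 for replication and 0.10 for mitosis genes in the mutant, and -0.04 and -0.09 in the wild-type line.

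Of 33 targets of p53, 11 were lower, 2 higher and 20 not called, with a median of -0.12. Over all tested genes, 9.54% were lower and 11.7% higher. CDKN1A, the cell cycle inhibitor p21, was at 268, 229 and 259.7 CPM in the mutant and 423, 404 and 399 CPM in the wild-type replicates (log2 fold change -0.69, SE 0.0605, edgeR adjusted p = 1.72e-07), and the vector line at 362, 354 and 359.6 CPM was nearer the wild-type. TP53I3, an oxidoreductase, was at 53.6, 52 and 55.5 against 70.4, 75.9 and 75 CPM (log2 fold change -0.46, SE 0.0672, edgeR adjusted p = 9.07e-05) and ZMAT3, an RNA-binding zinc finger gene, at 78.3, 82.1 and 75.9 against 109, 108 and 109 CPM (log2 fold change -0.47, SE 0.0753, edgeR adjusted p = 0.000226). CD82, a tetraspanin on the same list, was higher at 51.6, 45.5 and 51.5 against 31.7, 30.1 and 30.9 CPM (log2 fold change 0.68, SE 0.08, edgeR adjusted p = 8.29e-06). The other higher gene, the kinase PLK2, was not called without mutant replicate 1 (adjusted p = 0.054), wild-type replicate 1 (0.155) or wild-type replicate 3 (0.0605), while 9 to 12 targets were lower in every fit that left out 1 library.

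Hypoxia and glycolysis genes had the largest share of higher members of all the lists. Of 34 tested, 15 were higher and 1 lower, beside 11.7% and 9.54% of all tested genes, and the median was 0.27. CA12, a membrane carbonic anhydrase, was at 25.3, 22.3 and 20.6 CPM in the mutant and 9.02, 9.63 and 10.1 CPM in the wild-type replicates (log2 fold change 1.25, SE 0.0954, edgeR adjusted p = 2.64e-08). BNIP3, a mitophagy receptor, was at 86, 79.6 and 112 against 56.3, 56.2 and 52.7 CPM (log2 fold change 0.75, SE 0.103, edgeR adjusted p = 4.65e-05). The glycolytic enzyme ENO1 was at 3224, 4183 and 4029 against 2791, 2631 and 2690.2 CPM (log2 fold change 0.50, SE 0.0794, edgeR adjusted p = 0.000211), with mutant replicate 1 the lowest of its group and still above all wild-type libraries. The vector line stood with the wild-type for BNIP3 (63.1, 59.8 and 58.8 CPM) and ENO1 (2984, 2929 and 2796 CPM). Leaving out 1 library left 12 to 20 higher. The single lower gene, the regulatory enzyme PFKFB3, was not called in 5 of the 6 fits that left out 1 library (adjusted p 0.0609 to 0.186).

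**Figure D4:**
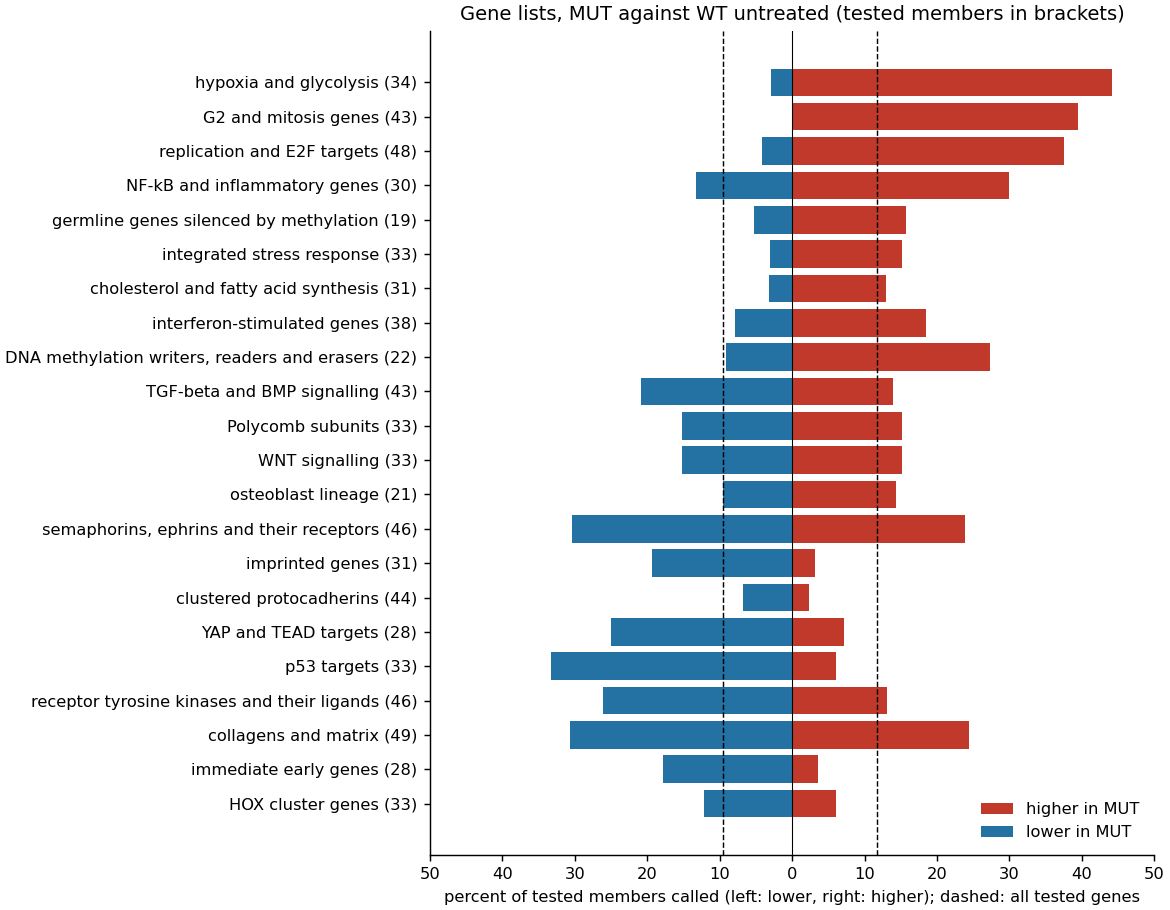
For each gene list with at least 15 tested members (number in brackets), the percent of members called higher (red, right) and lower (blue, left) in the mutant, ordered by the list's median log2 fold change; dashed lines mark 11.7% higher and 9.54% lower over all tested genes. Hypoxia, mitosis and replication genes extend furthest to the right, and p53 targets furthest to the left.

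Matrix genes changed in both directions. Of 49 tested collagens, matrix proteins and their enzymes, 12 were higher and 15 lower, so 27 of 49 differed beside 21.2% of all genes. The fibrillar collagen gene COL1A1, also an osteoblast and mesenchymal marker, was at 184, 173 and 139 CPM in the mutant and 61, 68.5 and 60.8 CPM in the wild-type replicates (log2 fold change 1.38, SE 0.104, edgeR adjusted p = 2.05e-08). COL16A1, a fibril-associated collagen, was at 53.6, 37.1 and 53.2 against 13, 12.2 and 12.3 CPM (log2 fold change 1.94, SE 0.124, edgeR adjusted p = 2.43e-09), and the gelatinase gene MMP2 at 159, 143 and 148 against 78.9, 81 and 78 CPM (log2 fold change 0.92, SE 0.0756, edgeR adjusted p = 7.47e-08). COL3A1, the other main fibrillar collagen of soft tissue, was lower, at 8.93, 7.99 and 8.11 against 23.4, 27.3 and 22.1 CPM (log2 fold change -1.54, SE 0.138, edgeR adjusted p = 2.81e-07), as were the matrix glycoprotein TNC (-0.82) and the transmembrane collagen COL13A1 (-0.69). For COL1A1 the vector line was at 168, 178 and 184 CPM and for COL3A1 at 7.13, 5.32 and 7.26 CPM, so in both the wild-type line departed from vector and mutant. Leaving out 1 library gave 11 to 15 higher and 11 to 16 lower.

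Osteoblast and surface identity genes were divided as well, and osteoblast genes had a share of calls near the 21.2% of all tested genes. Of 21 osteoblast lineage genes, 3 were higher, among them the decoy receptor gene TNFRSF11B at 55.9, 45.6 and 58.5 against 35.6, 33 and 35.1 CPM (log2 fold change 0.63, SE 0.0865, edgeR adjusted p = 4.69e-05) and the ligand BMP4 at 76.6, 71.1 and 77.8 against 46.3, 51.1 and 48.2 CPM (log2 fold change 0.63, SE 0.087, edgeR adjusted p = 4.71e-05). The 2 lower ones were the cadherin gene CDH11, at 5.97, 4.97 and 4.34 against 10.6, 11.3 and 11.8 CPM (log2 fold change -1.14, SE 0.139, edgeR adjusted p = 1.3e-05), and the transcription factor gene SOX9 (-0.34). Of 11 mesenchymal markers, THY1 (1.04) and COL1A1 were higher, and CDH11, CDH2 (-0.51) and ENG (-0.53) lower; without mutant replicate 3, 5 were lower. Of 10 neural markers, NES was the higher one (2 were higher without mutant replicate 2), while the synaptic vesicle gene SYP was lower at 3.56, 4.84 and 5.25 against 11.3, 9.63 and 10.8 CPM (log2 fold change -1.22, SE 0.129, edgeR adjusted p = 2.33e-06) and GFAP at 1.15, 1.26 and 1.14 against 3.24, 4.44 and 3.19 CPM (log2 fold change -1.61, SE 0.268, edgeR adjusted p = 0.000307). Of 6 tested epithelial markers, CLDN4 (0.54) and EPCAM (0.61) were higher, and EPCAM was not called when mutant replicate 1 or 3 or wild-type replicate 1 or 2 was left out (adjusted p 0.0641 to 0.0887). Of 3 tested blood cell markers, 1 was higher, and with 1 library left out it was called in 1 of 6 fits.

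Guidance and growth factor genes were called in both directions, beside 11.7% higher and 9.54% lower over all tested genes. Among 46 semaphorins, ephrins and their receptors, 14 were lower and 11 higher. SEMA3E, a ligand of plexin D1, was at 24.5, 26.5 and 25.5 CPM in the mutant and 48, 43.8 and 48.9 CPM in the wild-type replicates (log2 fold change -0.88, SE 0.0726, edgeR adjusted p = 7.8e-08), and the semaphorin and VEGF co-receptor gene NRP1 at 15, 17.9 and 13.9 against 21.3, 23.6 and 24.7 CPM (log2 fold change -0.58, SE 0.0901, edgeR adjusted p = 0.000169). SEMA3F, EPHB3 and SEMA7A were higher (log2 fold changes 0.75, 0.66 and 0.31). EPHB3 and SEMA7A, and GAS6 below, were not called in the fit to the 6 libraries alone (edgeR adjusted p = 0.0573, 0.0841 and 0.0626). Without wild-type replicate 3 the higher members numbered 6, without wild-type replicate 1 they numbered 7, and without wild-type replicate 2 the lower members numbered 8. Among 46 receptor tyrosine kinases and ligands, 12 were lower and 6 higher. FGF5 was at 16.6, 16 and 15.9 against 33.3, 29.8 and 31.9 CPM (log2 fold change -0.97, SE 0.141, edgeR adjusted p = 8.53e-05), FGF2 at 24.3, 21.6 and 23.4 against 33.5, 32.8 and 35.5 CPM (log2 fold change -0.55, SE 0.0815, edgeR adjusted p = 9.25e-05) and IGF2, a growth factor that is also imprinted, at 7.57, 9.25 and 5.43 against 17.5, 13.7 and 17.8 CPM (log2 fold change -1.14, SE 0.169, edgeR adjusted p = 9.87e-05). The receptor gene PDGFRB was higher at 31.3, 33.8 and 25.4 against 13, 15.6 and 14.6 CPM (log2 fold change 1.07, SE 0.101, edgeR adjusted p = 5.28e-07), as were FGFR1 (0.50) and the AXL family ligand GAS6 (0.40).

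In the TGF-beta and BMP list, 6 of 43 were higher and 9 lower, beside 11.7% and 9.54% of all tested genes. The follistatin-like gene FSTL1 was at 569, 529 and 524 CPM in the mutant and 326, 337 and 337 CPM in the wild-type replicates (log2 fold change 0.70, SE 0.0535, edgeR adjusted p = 2.7e-08). The receptor gene TGFBR1 (-0.54) and the latent TGF-beta binding protein LTBP2 (-0.55) were lower and the co-receptor TGFBR3 (0.62) higher. Of 28 YAP and TEAD targets, 7 were lower and 2 higher; the lower ones numbered 3 without mutant replicate 2, and 2, 1 and 2 without wild-type replicates 1, 2 and 3. With RLE factors, the authors' factors and length-corrected offsets, 3, 4 and 3 were lower. CTGF was called in each of those fits. RBMS3 (0.49) and the clotting initiator F3 (0.62) were the 2 higher members. Of 33 WNT genes, 5 were higher and 5 lower, among them the ligands WNT7B (0.89) and WNT5A (-0.44), the stem cell receptor LGR5 (1.26), the WNT inhibitor NKD1 (0.71) and the receptor FZD3 (-0.48). TGFBR3, F3, NKD1 and WNT5A were not called in the fit to the 6 libraries alone (edgeR adjusted p 0.0501 to 0.0835). Lower WNT members numbered 2 without wild-type replicate 2 or 3 and 3 without wild-type replicate 1, with RLE factors, with the authors' factors or with the replicate block.

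Among the genes that write, read and erase DNA methylation, DNMT3A and DNMT3B had the largest differences. Of 22 tested, 6 were higher and 2 lower, beside 11.7% and 9.54% of all tested genes, with a median of -0.01. Without wild-type replicate 3, 3 were higher. DNMT3B, the second de novo methyltransferase, was at 48.5, 47.6 and 38.9 CPM in the mutant, 23.7, 27 and 26.9 CPM in the wild-type and 34.9, 34.6 and 39.2 CPM in the vector line (log2 fold change 0.80, SE 0.0869, edgeR adjusted p = 3.21e-06). AHCY, which clears the methylation by-product S-adenosylhomocysteine, was at 439.6, 562 and 544 against 425, 396 and 405 CPM (log2 fold change 0.33, SE 0.0788, edgeR adjusted p = 0.00503). It was not called in the fit to the 6 libraries alone (edgeR adjusted p = 0.108). The methyl-CpG reader MBD1 was at 33, 30.9 and 29.6 against 41.9, 42.9 and 39.5 CPM (log2 fold change -0.41, SE 0.0773, edgeR adjusted p = 0.000919). The maintenance enzyme DNMT1 was at 278, 271 and 213 against 252, 252 and 266 CPM (log2 fold change -0.01, SE 0.0759, edgeR adjusted p = 0.916), with no call and a sign that depended on the scaling, and its partner UHRF1 at 201, 147 and 166 against 148, 152 and 155 CPM (log2 fold change 0.17, SE 0.0877, edgeR adjusted p = 0.176). The oxidising erasers TET1, TET2 and TET3 were not called (log2 fold changes 0.17, -0.18 and -0.09), and TET2 and TET3 changed sign without mutant replicate 3 (0.067 and 0.17). IDH1, whose product feeds the TET enzymes, was higher (0.24). It was not called without wild-type replicate 3 (edgeR adjusted p = 0.0634) or in the fit to the 6 libraries alone (0.111). TDG, MBD3 and ZBTB4, the remaining calls, were each lost when any of 4 or 5 of the 6 libraries was left out (adjusted p 0.0503 to 0.139, 0.0598 to 0.124 and 0.0523 to 0.213).

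Gene classes that methylation is known to silence or to mark by parent of origin had shares of calls near the 21.2% of all genes. Of 19 tested germline genes, of 45 listed, 3 were higher and 1 lower. The lower one was CTCFL, the testis paralogue of CTCF, at 0.752, 0.44 and 0.343 CPM in the mutant, 5.49, 5.24 and 5.17 CPM in the wild-type and 20.5, 20.9 and 19.5 CPM in the vector line, a descending order from vector to mutant (10.0-fold lower than wild-type, log2 fold change -3.33, SE 0.253, edgeR adjusted p = 2.45e-08). MAGEA3, a cancer-testis antigen with near-identical copies, was at 86, 96.5 and 112 against 69.4, 71.7 and 68.7 CPM (log2 fold change 0.49, SE 0.0875, edgeR adjusted p = 0.000566). GAGE1, of another multicopy family, held 10, 25 and 16 counts in the mutant and 0, 1 and 2 in the wild-type libraries (log2 fold change 4.07, SE 0.836, edgeR adjusted p = 0.00178). The remaining higher one, STK31, was not called when mutant replicate 3 or any wild-type replicate was left out (adjusted p 0.065 to 0.0734). Without mutant replicate 2, 6 germline genes were higher, and without mutant replicate 3 or with length-corrected offsets, 3 were lower. Of 31 imprinted genes, 6 were lower and 1 higher. The maternally expressed RNA H19 was at 3.41, 5.41 and 3.14 against 2.16, 1.22 and 1.81 CPM (log2 fold change 1.18, SE 0.244, edgeR adjusted p = 0.00179), while its neighbour IGF2 was lower, as given above, with vector levels of 3.21, 3.91 and 2.15 and 8.59, 9.64 and 8.05 CPM. ZDBF2 (-0.62) and SNURF (-1.34), which overlaps SNRPN, were lower as well; without mutant replicate 2, the lower imprinted genes numbered 3 and the higher ones 2, and without mutant replicate 3, with RLE factors or with length-corrected offsets the higher ones numbered 2.

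Developmental clusters and chromatin regulators showed no shared direction. The share called was near the 21.2% of all tested genes for HOX genes and below it for clustered protocadherins. Of 33 HOX genes, 2 were higher and 4 lower, with HOXD9 at 10.7, 11.6 and 12 against 8.48, 7.14 and 8.3 CPM (log2 fold change 0.52, SE 0.129, edgeR adjusted p = 0.00735). HOXD11 and HOXD10, which overlap in the deposited coordinates, were at 0.251, 0.189 and 0.514 and 0.0501, 0 and 0.343 CPM in the mutant and 1.23, 1.85 and 2.14 and 1.13, 1.01 and 1.54 CPM in the wild-type replicates (log2 fold change -2.42, SE 0.493, edgeR adjusted p = 0.00166 for HOXD11). In the vector line they were at 5.14, 3.97 and 3.81 and 2.8, 2.51 and 2.89 CPM, above both DNMT3A lines. HOXA7 and HOXC8 were each lost when any of 3 libraries was left out (adjusted p 0.0567 to 0.124 and 0.0604 to 0.0672), mutant replicate 3 and wild-type replicate 2 among them, and without mutant replicate 2 the lower HOX genes numbered 2. Of 44 clustered protocadherins, 1 was higher and 3 lower. PCDHB5 was at 6.77, 4.84 and 5.94 against 14.2, 15.1 and 12.8 CPM (log2 fold change -1.25, SE 0.144, edgeR adjusted p = 5.98e-06) and PCDHB2 at 8.98, 9.62 and 9.65 against 13.1, 12.3 and 11.8 CPM (log2 fold change -0.40, SE 0.092, edgeR adjusted p = 0.00427). PCDHGC5 was listed at 0 counts in the 3 mutant libraries and 4 to 6 in the wild-type libraries, and the higher call, PCDHGA9, was lost without mutant replicate 2 or any wild-type replicate (adjusted p 0.0759 to 0.256). Without mutant replicate 1 or 2, 5 protocadherins were lower. Of 33 Polycomb subunits, 5 were higher and 5 lower. The histone H3 lysine 27 methyltransferase EZH2 was at 34.9, 28.1 and 34 against 21.6, 23 and 23.9 CPM (log2 fold change 0.50, SE 0.101, edgeR adjusted p = 0.00146), the histone chaperone genes RBBP7 (0.41) and RBBP4 (0.37) were higher, and the ring complex gene BMI1 was at 187, 171 and 192 against 229, 218 and 224 CPM (log2 fold change -0.29, SE 0.0593, edgeR adjusted p = 0.00188). Without mutant replicate 3, 9 Polycomb genes were higher and 3 lower, and when any wild-type replicate was left out 3 were lower. With RLE factors 8 were higher, and with the authors' factors 3 were lower.

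Inflammatory genes were called in both directions, beside 11.7% higher and 9.54% lower over all tested genes. Of 30 NF-kB and inflammatory genes, 9 were higher and 4 lower, with a median of 0.15. IL24, a cytokine of the interleukin 10 family, was at 16.8, 16.4 and 19.5 CPM in the mutant and 4.46, 4.81 and 3.9 CPM in the wild-type replicates (log2 fold change 2.00, SE 0.11, edgeR adjusted p = 3.92e-10), IL11 was at 18.1, 17.5 and 20.6 against 10.4, 9.68 and 12 CPM (log2 fold change 0.81, SE 0.0947, edgeR adjusted p = 8.29e-06), and ICAM1 is given above. The chemokine CXCL8 was lower at 8.02, 5.35 and 10.7 against 18.2, 13.7 and 18.5 CPM (log2 fold change -1.06, SE 0.18, edgeR adjusted p = 0.000371) and the nuclear inhibitor NFKBIZ at 11.7, 6.73 and 10.2 against 21.1, 25.3 and 21.1 CPM (log2 fold change -1.23, SE 0.186, edgeR adjusted p = 0.000122). TNFAIP6, a secreted hyaluronan-binding protein, held 1 to 5 counts in the mutant and 19 to 35 in the wild-type libraries. Of 38 interferon-stimulated genes, 7 were higher and 3 lower. OAS3, a sensor of double-stranded RNA, was at 44.2, 55.7 and 36.7 against 26.7, 26.5 and 28.3 CPM (log2 fold change 0.74, SE 0.11, edgeR adjusted p = 9.28e-05), and IRF1 (0.53) and the RNA sensor IFIH1 (0.68) were higher. IFI44 held 1 to 4 counts in the mutant and 15 to 21 in the wild-type libraries (log2 fold change -2.79, SE 0.505, edgeR adjusted p = 0.000623), and IFI44L was at 0 counts in all 3 mutant libraries and 2 to 7 in the wild-type. The higher interferon-stimulated genes numbered 4 without wild-type replicate 1 or 3, and the lower ones 1 without wild-type replicate 1. IFI44L was not called without mutant replicate 1 or wild-type replicate 1 (adjusted p 0.051 to 0.0746). The remaining lower one, OASL (-1.01), was lost without mutant replicate 1 or 2 or wild-type replicate 1 or 2 (edgeR adjusted p 0.121 to 0.176). It was also lost with RLE or the authors' factors, no low-count filter, length-corrected offsets, DESeq2, limma voom or the replicate block. The fit to the 9 untreated libraries did not call it either.

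Of 28 immediate early genes, 1 was higher and 5 lower, with a median of -0.18. Their share of calls was near the 21.2% of all tested genes. ARC, an activity-induced gene, was the higher one, at 51.1, 53.8 and 57.5 CPM in the mutant, 18.5, 17.6 and 20.4 CPM in the wild-type and 62.8, 63.6 and 65.6 CPM in the vector line (log2 fold change 1.52, SE 0.0706, edgeR adjusted p = 2.82e-11). The phosphatase gene DUSP1 was at 99.8, 80.9 and 99.6 against 152, 155 and 153 CPM (log2 fold change -0.72, SE 0.0854, edgeR adjusted p = 9.71e-06), and KLF6 (-0.49) and DUSP5 (-0.60) were lower. DUSP5 was not called in the fit to the 6 libraries alone (edgeR adjusted p = 0.0554). Mutant replicate 2 changed this list most: without it, 6 were higher and 3 lower, while 8 were lower without mutant replicate 1, 2 were higher without mutant replicate 3 and 3 were lower without wild-type replicate 2. With RLE factors 2 were higher, and with length-corrected offsets 8 were lower. The 2 metabolic lists had shares of calls near the 21.2% of all genes. Of 33 integrated stress response genes, 5 were higher and 1 lower, with the asparagine synthetase gene ASNS at 214, 226 and 278 against 174, 162 and 168 CPM (log2 fold change 0.51, SE 0.0814, edgeR adjusted p = 0.000204), PHGDH (0.39) and SHMT2 (0.35) of serine synthesis and use higher, and the cystine transporter SLC7A11 (-0.42) lower. Without mutant replicate 2 the higher members numbered 9, and without mutant replicate 3 the lower ones numbered 3. Of 31 cholesterol and fatty acid synthesis genes, 4 were higher and 1 lower, with the fatty acid elongase gene ELOVL6 at 31.2, 31.3 and 31.2 against 23.3, 21.3 and 22.7 CPM (log2 fold change 0.48, SE 0.0835, edgeR adjusted p = 0.000467); 7, 8 and 10 were higher without mutant replicates 1, 2 and 3, and 2 were lower without mutant replicate 2 or 3, while 7 were higher with RLE factors and with length-corrected offsets. SC5D, the lower one, was not called without wild-type replicate 2 (adjusted p = 0.104).

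The direction of the calls varied by chromosome, beside 11.7% higher and 9.54% lower over all tested genes. On chromosome 13, 88 of 316 tested genes were higher and 8 lower, with a median log2 fold change of 0.22. Chromosome 2 had 233 higher and 58 lower of 1222, and chromosome 19 had 215 higher and 53 lower of 1271. The reverse was seen on chromosome 3, with 56 higher and 167 lower of 1016, and chromosome 9, with 53 higher and 123 lower of 718. These 5 chromosomes were picked after the values were seen. Chromosome 18, not among them, had 19 higher and 49 lower of 287. The treated libraries gave 110 higher and 5 lower on chromosome 13 and 58 higher and 198 lower on chromosome 3. Over all tested genes, 10.4% were higher and 9.48% lower when treated. Over windows of 5 Mb with at least 20 tested genes, none of 346 had more than 50% of its genes called in 1 direction; the highest share was 14 of 31 lower at 25 to 30 Mb of chromosome 12, followed by 18 of 41 higher at 110 to 115 Mb of chromosome 13.

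Most transcript classes other than protein-coding genes had smaller shares of calls than the 11.7% higher and 9.54% lower of all tested genes, and their medians differed. Processed pseudogenes had a median log2 fold change of 0.35 over 1022 tested, with 85 higher (8.32%) and 19 lower (1.86%), and the median was 0.26 with a correction for gene length and 0.50 without mutant replicate 3. Antisense RNAs had a median of -0.22 (23 higher, 2.48%, and 62 lower, 6.67%, of 929) and long intergenic RNAs of -0.18 (46 higher, 5.24%, and 87 lower, 9.91%, of 878), against 0.01 over 14309 protein-coding genes (13.5% higher and 10.3% lower). Genes with a mean log2 CPM of 7 or more were higher in 528 and lower in 133 of 1916 cases. Without strand information, reads of a gene and its antisense partner cannot be told apart.

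The same line comparison after cytarabine used 6 other libraries from the same derived lines. It is therefore no repeat in independent lines, and it shares the gene filter and the estimate of spread with the untreated comparison. It called 3616 genes (19.8%), and 1808 were called in both conditions, 1785 of them in the same direction (46.1% of the untreated and 49.4% of the treated calls) and 23 in opposite directions. Of the 634 genes called and at least 2-fold apart untreated, 598 had the same sign after treatment and 407 were called in the same direction. All 36 genes named by size kept their sign and 33 were called, SEMA3A, NEAT1 and AL590004.3 being the exceptions. The difference between lines itself differed by treatment in 183 genes (1% of those tested) by the interaction contrast.

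**Figure D5:**
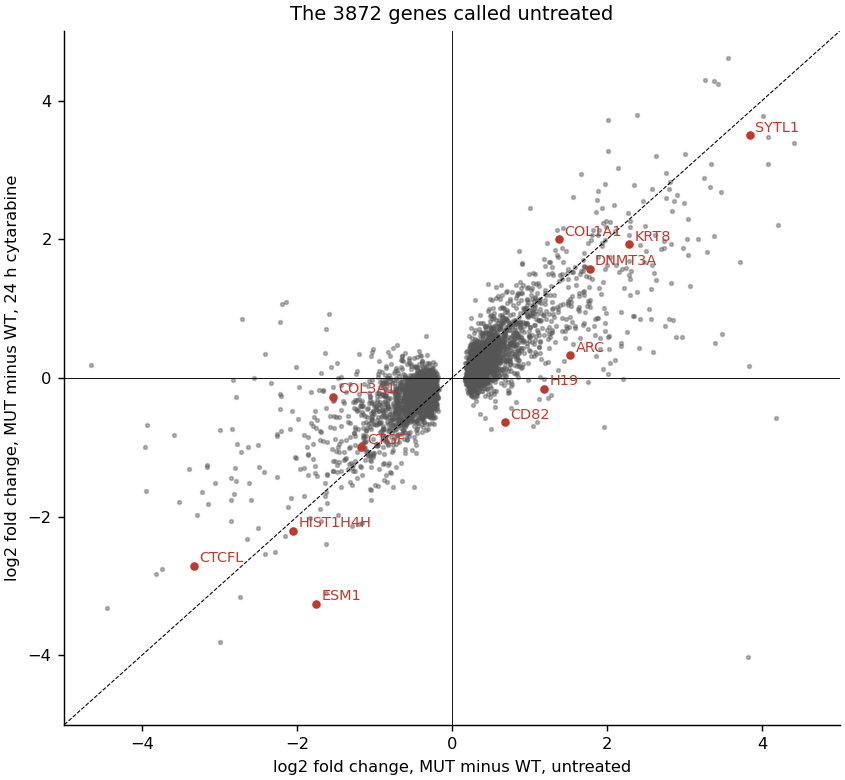
Log2 fold change, mutant minus wild-type, of the 3872 genes called untreated, with the untreated value on the x axis and the value after 24 h of cytarabine on the y axis; the dashed line marks equal values and red points are labelled genes. Most genes (3419 of 3872) keep their sign, while H19 and CD82 lie below 0 after treatment and ESM1 lies further below 0 than untreated.

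Gene groups kept or lost their pattern under the drug to different degrees. Mitosis genes were 17 higher and 0 lower of 43 again, with a median of 0.19, and replication genes 14 higher and 5 lower of 48. Targets of p53 were 0 higher and 15 lower of 33, with a median of -0.28 and CDKN1A at -0.64. In hypoxia and glycolysis genes, 2 were higher and 6 lower of 34, with a median of -0.07 in place of 0.27. CA12 was still higher (0.73, edgeR adjusted p = 1.18e-05), whereas ENO1 (0.10, adjusted p = 0.406) and BNIP3 (0.20, adjusted p = 0.191) were not called. Cholesterol and fatty acid synthesis genes were 1 higher and 12 lower of 31, and integrated stress response genes 2 higher and 10 lower of 33. Matrix genes were 19 higher and 12 lower of 49, with COL1A1 at 2.00 and COL3A1 no longer called (-0.27, adjusted p = 0.149). Clustered protocadherins were 6 higher and 0 lower of 44. Shares of 10.4% higher and 9.48% lower over all genes are the background of these counts, and the difference between conditions was tested for single genes and not for the groups.

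At the edge of the threshold, YLPM1 and SOX6 were the last genes called (adjusted p = 0.04995 and 0.04996) and CCDC124 and AC097478.1 the first ones not called (0.05001 and 0.05012). Their log2 fold changes were -0.40, -0.65, 0.26 and -0.43, so a small difference in a gene with little spread and a larger one in a gene with more spread stood side by side.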

How the data were processed

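Total RNA from 18 U2OS libraries (6 groups of 3) was sequenced with an NEBNext Ultra kit, per the labels' protocols, and the submitters' processing notes name CASAVA, STAR 2.6.1d and the hg38 build. The counting tool, its use of strand and its treatment of reads with several matches are not given in the sources used here. A table deposited by the authors holds estimated counts (25296 genes, 70.4% of values whole, not normalized), which is the basis of all results. They also deposited a normalized signal for 19591 genes, which equals 1 plus a library factor times the count (largest relative deviation 8.14e-06); those factors served as an alternative scaling. The members and gene lists were chosen with earlier results of these data known.

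Estimated counts were rounded and analysed in R 4.3.3 with edgeR 4.0.16: filterByExpr left 18226 genes, TMM factors scaled the libraries, and glmQLFit and glmQLFTest were run on all 18 libraries in 1 fit with a coefficient per group. The Benjamini-Hochberg adjustment covered all tested genes, with a threshold of 0.05, and every adjusted p in the text comes from this edgeR test unless another tool is named. Standard errors are the absolute log2 fold change over the square root of F. CPM values use TMM-scaled library sizes. Counts in the text are rounded. On simulated counts (17803 genes), the script recovered 67% of genes changed 1.5-fold and 90% of those changed 2-fold, with 11 false calls. The simulation gave every group the same spread, whereas the coefficients of variation here were 0.216 in the mutant and 0.0398 in the wild-type group. These figures therefore check the script and do not give the recovery or false calls of this comparison.

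Genes were named by a rule: among called genes whose groups did not overlap, the 10 largest changes each way at a mean log2 CPM of at least 1 and the 8 largest each way at 5 or more, the list of methylation genes, for other lists the 3 called members with the smallest p each way where at least 2 were called, and the 2 genes on each side of the threshold. Lists are given by counts and medians, with no set test. Further members that the rule names, 9 uncalled methylation genes among them, are given by counts alone, and results for some genes are not reported here. Promoters came from the RefSeq table (GRCh38.p14), matched by symbol, chromosome and strand. Alternatives were other scalings (RLE, upper quartile, the authors' factors), DESeq2 1.42.0, limma 3.58.1 voom with quality weights, other filters, smaller fits, a replicate block, leaving out each library and, added after the data were seen, offsets corrected for gene length.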

Additional observations from a re-analysis of the deposited data

Results flagged for a closer look

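In 20 of the named genes the line difference after cytarabine differed from the untreated one, by an interaction contrast with an edgeR adjusted p under 0.05. Over all tested genes the share was 1%. Most named genes were chosen by their untreated difference, which this contrast subtracts, so the 2 shares cannot be compared. The values below are the treated minus the untreated log2 difference between lines. Differences became more negative for ESM1 (-1.50, SE 0.3), H19 (-1.34), CD82 (-1.32), ARC (-1.20), PARP10 (-0.64), ASNS (-0.53), IDH1 (-0.50) and TUBB2B (-0.41). CD82, a tetraspanin, was at 51.6, 45.5 and 51.5 CPM in the mutant and 31.7, 30.1 and 30.9 CPM in the wild-type replicates untreated, and at 78.3, 73.4 and 68.4 and 112, 117 and 113 CPM after treatment, so the order of the lines was exchanged. ESM1 was at 3.71, 2.26 and 5.65 and 14.1, 14 and 11.4 CPM untreated and at 3.65, 4.69 and 4.4 and 34.4, 46.4 and 41.3 CPM treated.

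They became more positive for SEMA3A (1.55, SE 0.212), COL3A1 (1.26), PCDHB5 (0.93), AL590004.3 (0.79), FGF2 (0.77), SHISA9 (0.76), TNFRSF11B (0.71), RBMS3 (0.65), VGF (0.64), SEMA3E (0.63), COL1A1 (0.62) and BMI1 (0.39). SEMA3A was at 21.6, 16.3 and 20.4 CPM in the mutant and 22.4, 18.7 and 24.5 CPM in the wild-type replicates after treatment, against a 3.29-fold lower level in the mutant untreated. COL3A1 was at 18.7, 16.5 and 19.8 and 22, 23.5 and 21 CPM after treatment. Groups of 3 were not screened for outlying samples.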

How the results depend on the processing

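All of the called named genes kept their direction in every alternative run that tested them. Of the 150, 109 were called in each run that tested them, and some runs left members untested. With a mean of at least 50 counts, 137 were called and 1 was tested but not called. The fit to the 6 libraries called 110 and left 35 tested ones uncalled, among them AHCY, H19, BMI1, PCDHB2, RBBP4, HOXD9 and GAS6. EPHB3, SEMA7A, TGFBR3, F3, NKD1, WNT5A, DUSP5, IDH1 and MCM10 were also uncalled in that fit. The count of 3872 calls was 1171 in the fit to the 6 libraries (650 higher, 521 lower), and the cause of this drop was not tested. It was 2604 in the fit to the 9 untreated libraries (1131 lower), and 634 with a minimum log2 fold change of 1 (345 higher, 289 lower). Under that minimum, the treated comparison had 654 calls and 300 calls were shared in direction; limma voom gave 6207 treated calls, and the cause was not tested. Leaving out each library in turn gave 2784 to 4541 calls, 1544 to 2867 higher and 1012 to 1797 lower. RLE factors gave 4101, upper-quartile factors 3965, the authors' factors 4034, DESeq2 4301, voom 3594, no filter 3473, a mean of at least 50 counts 3896 and length-corrected offsets 4003 calls. The median log2 fold change of all genes, 0.00, was 0.05 with RLE factors and with the authors' factors. The replicate block gave 3820 calls. Deviations from the group means in same-numbered mutant and wild-type libraries correlated at r = -0.09, -0.26 and -0.208 over 10865 genes. Differently numbered libraries gave r from -0.072 to 0.272. No positive link between equal numbers was seen, but deviations in groups of 3 sum to 0, so these values cannot decide whether the numbers pair the samples. DNMT1, uncalled at -0.01, was 0.027 with RLE factors, 0.023 with the authors' factors, 0.0039 with the count minimum, 0.027 with DESeq2, 0.072 with voom, 0.085 with length correction, and -0.084 to 0.13 with 1 library left out (0.0074 without wild-type replicate 2, 0.012 without wild-type replicate 3). TET2 ranged from -0.35 to 0.067 and TET3 from -0.25 to 0.17 with 1 library left out, both highest without mutant replicate 3; the cause was not tested. Library totals of 18.03 to 21.48 M counts leave genes below about 10 counts, such as PCDHGC5 and IFI44L, without a usable fold change.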
